A study of Mus musculus with 2 samples.

Results

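The Toll-like receptors Tlr1, Tlr2, Tlr3, Tlr4, Tlr5, Tlr6, Tlr7, Tlr9 and Tlr12 and the adaptor Myd88 were followed in the proximal intestine of mice with and without CD36. These 10 genes were taken by name, and each probe set annotated to 1 of them and to no other gene was used, which gave 17 of the 34958 probe sets with a single gene symbol (10 of 18194 genes). Both groups were C57BL/6 mice on chow. The control group was wild type (WT), and the other carried a germline null allele of Cd36 (CD36KO). The upper part of the gut was taken from 3 animals per genotype, their RNA was pooled, and each pool was hybridised to 1 Affymetrix array, so that there is 1 value per genotype and no replicate. No test was possible, and the precision of each value below is limited by there being 1 array per genotype. The age of the animals is not stated in the labels.

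Toll-like receptors recognise conserved molecules of microbes. Those on the cell surface bind lipopeptides (Tlr2, paired with Tlr1 or Tlr6), lipopolysaccharide (Tlr4) and flagellin (Tlr5), and those in endosomes bind nucleic acids (Tlr3, Tlr7, Tlr9) or the parasite protein profilin (Tlr12). All of them except Tlr3 signal through Myd88, which recruits kinases of the Irak family and leads to NF-kB and interferon regulatory factors. CD36 is a co-receptor of several of them. It hands diacylated lipopeptides to the pair of Tlr2 and Tlr6, and it acts with Tlr4 and Tlr6 in the response of macrophages to oxidised lipoproteins. In the gut these receptors are found on macrophages, dendritic cells and B cells as well as on epithelial cells.

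The upstream regions of Tlr2, the member that differed most between the pools, and of its partners Tlr1 and Tlr6 follow. Each is the 250 bases before a transcription start in RefSeq (GRCm38.p6), written along the strand of the gene. For Tlr1 and Tlr6, which have a pair of annotated starts each, the region is the one lying farther upstream. Capitals mark matches on either strand to 4 motifs, namely the NF-kB consensus, the PU.1 core GAGGAAGT, the interferon-stimulated response element (GAAA and GAAA with any 2 bases between them) and the Sp1 box GGGCGG.
Tlr2 (chr3:83841609-83841858, minus strand): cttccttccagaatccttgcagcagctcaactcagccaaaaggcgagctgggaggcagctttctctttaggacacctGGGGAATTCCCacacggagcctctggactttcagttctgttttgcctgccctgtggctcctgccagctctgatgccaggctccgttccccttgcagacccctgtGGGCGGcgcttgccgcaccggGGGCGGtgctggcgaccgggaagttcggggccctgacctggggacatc
Tlr1 (chr5:64933559-64933808, minus strand): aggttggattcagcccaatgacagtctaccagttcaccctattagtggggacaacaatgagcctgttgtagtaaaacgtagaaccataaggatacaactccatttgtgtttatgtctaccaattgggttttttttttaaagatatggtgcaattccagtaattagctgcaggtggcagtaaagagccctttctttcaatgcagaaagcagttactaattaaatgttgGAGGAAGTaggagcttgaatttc
Tlr6 (chr5:64960049-64960298, minus strand): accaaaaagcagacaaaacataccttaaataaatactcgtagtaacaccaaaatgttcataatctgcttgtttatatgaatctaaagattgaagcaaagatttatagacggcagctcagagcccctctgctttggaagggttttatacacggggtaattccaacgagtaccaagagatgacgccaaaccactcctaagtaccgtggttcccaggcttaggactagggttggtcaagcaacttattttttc

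In the Tlr2 region the NF-kB consensus matched at overlapping places between bases -173 and -163 from the start, GGGGAATTCC and GGGAATTCCC, and the Sp1 box matched at -69 and at -48. The Tlr1 region held a match to the PU.1 core at -23, and the Tlr6 region printed here held none of the 4 motifs, while the region of the other Tlr6 start held the response element at -116 and -110. Among 32851 regions of the same length the NF-kB consensus occurred in 3.9%, the PU.1 core in 2.44%, the response element in 2.98% and the Sp1 box in 32.7%. Such a region was at hand for 8 of the 10 genes, not for Tlr4 and Tlr7, and made 10 regions in all. Of these 10 regions 2 held the NF-kB consensus, that of Tlr2 and that of Tlr3. The PU.1 core was in 1, the response element in 2 and the Sp1 box in 3. These matches describe letters in the sequence, and no binding was measured here.

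Cd36, the deleted gene, was lower in CD36KO at all 3 of its probe sets, with log2 differences of -1.83, -1.67 and -1.22. The CD36KO readings were 5.87, 6.02 and 3.52, so that the first pair still lay above the median level described next. Whether these probe sets fall inside the deletion is not known here, and one outside it would not check the labels. The medians of the 2 arrays were 4.38 for WT and 4.38 for CD36KO. As a guide to dim signal, the median of the mean level over all probe sets was 4.38. Values below it may hold little beyond background, since detection calls were not used here. The 9 epithelial markers examined, among them Epcam and Vil1, all lay above this level, as the tissue label implies. All 9 markers of the distal small intestine and all 10 measured of pancreas acinus were past 1.5-fold, on the CD36KO side. Both lists were chosen with earlier results of these data known. The median differences of these lists were 2.09 and 1.96, and the distal marker Fabp6 read 6.25 in WT and 12.9 in CD36KO. Of 11 proximal small intestine markers 6 were lower past 1.5-fold and 0 higher, with a median difference of -0.72. Past 1.5-fold and higher were also 5 of 7 smooth muscle and 4 of 7 goblet cell markers. Over all genes, each read at its probe set with the highest mean, 3.81% were higher by as much and 2.6% lower. With 1 pool per genotype, genotype cannot be told apart from gut segment or pancreas content of the samples. Their part in the readings of the Toll-like receptors and Myd88 was not tested. The 3' end of the beta-actin control RNA read 2.28 (log2) above its 5' end in WT and 1.34 above it in CD36KO. For the GAPDH control the same gap was 1.28 in WT and 0.715 in CD36KO. This gap between the ends cannot be told apart from genotype either, and its part in the readings was not tested.

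Of the 17 probe sets of Toll-like receptors and Myd88, 1 was higher in CD36KO by at least 1.5-fold, that of Tlr2, and 0 were lower by as much. Over all probe sets with a single gene symbol 4.4% were higher by at least 1.5-fold and 2.52% lower. A count of 1 in 17 is close to this background. The other 16 lay within 1.3-fold (a band chosen after the values were seen), with log2 differences from -0.32 to 0.27, while 18.8% of all single-gene probe sets lay at least 1.3-fold apart. Of the 17, 10 were higher and 7 lower in CD36KO. Their median difference was 0.06 (log2), against -0.0036 over all single-gene probe sets, and their median absolute difference was 0.12, against 0.18.

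**Figure D1:**
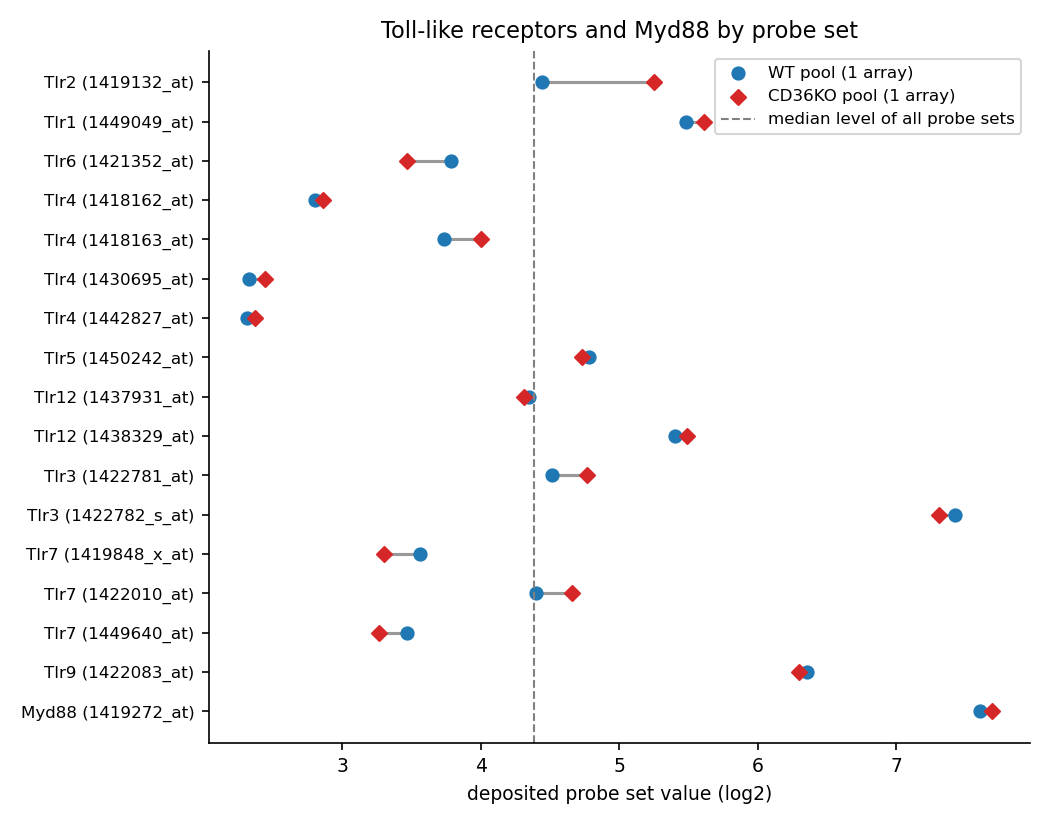
Deposited value (log2, horizontal axis) of each of the 17 probe sets of Toll-like receptors and Myd88 in the WT pool (blue circles) and the CD36KO pool (red diamonds), 1 array each, with the median level of all probe sets as a dashed line. Tlr2 shows the widest gap, from 4.45 to 5.25, and all 4 probe sets of Tlr4 lie to the left of the line.

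The differences of the lipopeptide receptors ran from -0.32 for Tlr6 to 0.80 for Tlr2, on 1 array per genotype. Tlr2, which recognises bacterial lipopeptides as the common chain of its pairs, read 4.45 in WT and 5.25 in CD36KO, 1.74-fold higher in CD36KO (log2 difference 0.80). Its WT value was just above the median level and its CD36KO value well above it. Tlr2 had 1 probe set, so that no other reading of the gene was at hand. Among the 4658 single-gene probe sets whose mean was within 0.5 of that of Tlr2, 6.42% were at least 1.5-fold higher in CD36KO. When 16 linear units were added to every value before the log, which damps low values, the difference of Tlr2 was 0.52 and no member passed 1.5-fold.

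Tlr1, the partner of Tlr2 for triacylated lipopeptides, read 5.48 in WT and 5.61 in CD36KO, a difference of 0.13. Tlr6, the partner for diacylated lipopeptides and the receptor that shares CD36 as a co-receptor with Tlr2 and Tlr4, read 3.79 in WT and 3.47 in CD36KO. Its difference of -0.32 was the lowest of the 17, and both readings lay below the median level. Both partners therefore lay within 1.3-fold, on opposite sides of 0. Tlr1 and Tlr6 are direct neighbours among the protein-coding genes of chromosome 5 in RefSeq (0 between them). Cd36 lies on the same chromosome with 280 protein-coding genes between it and Tlr1.

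**Figure D2:**
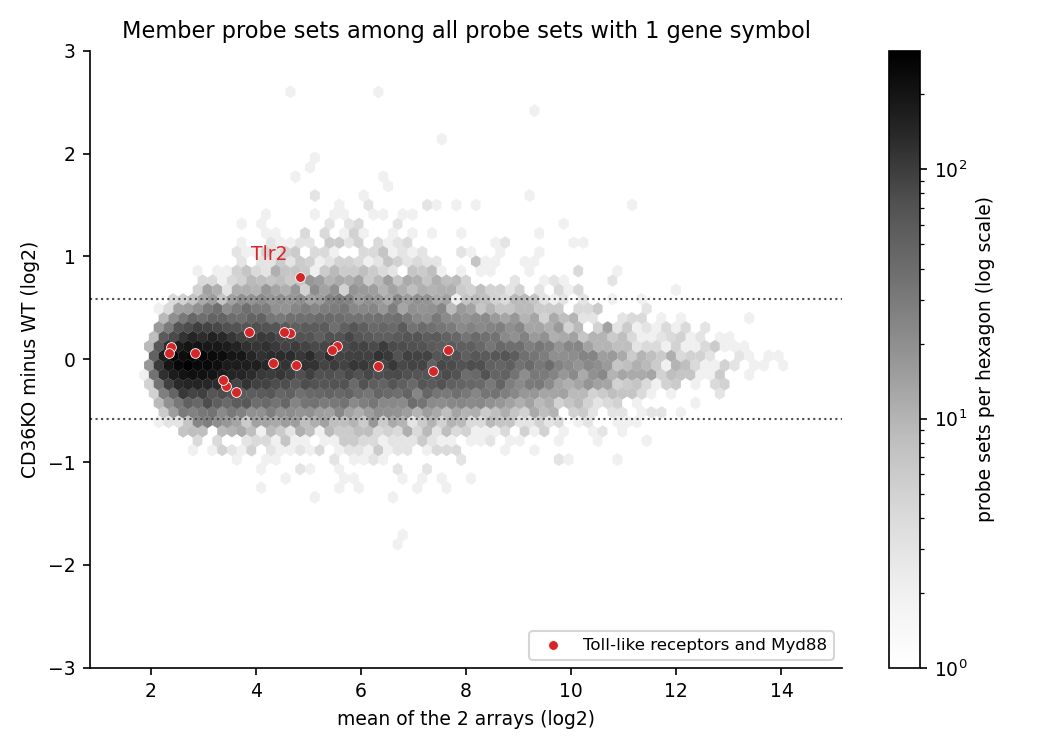
CD36KO minus WT difference (log2, vertical axis) against the mean of both arrays (log2, horizontal axis) for all single-gene probe sets, with darker hexagons holding more probe sets on a log scale and dotted lines at 1.5-fold. The red points are the 17 probe sets of Toll-like receptors and Myd88, of which Tlr2 alone lies outside the dotted lines; 25 other probe sets lie beyond the axis limit of 3.

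Tlr4, the lipopolysaccharide receptor, had 4 probe sets, all below the median level in both pools. The readings were 3.74 in WT and 4.0 in CD36KO for 1418163_at, and 2.80 and 2.86 for 1418162_at, which was designed on the same sequence record and is no independent reading. The remaining pair read 2.33 and 2.44 for 1430695_at and 2.31 and 2.37 for 1442827_at. All 4 were higher in CD36KO, by 0.06 to 0.27 (log2), which made Tlr4 the only one of the 4 members with several probe sets whose readings had a single sign.

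Tlr5, the flagellin receptor, which mouse Paneth cells express strongly, read 4.78 in WT and 4.73 in CD36KO, a difference of -0.05. In the same pools 4 of 5 Paneth cell markers measured were past 1.5-fold on the CD36KO side, Mmp7, Itln1, Ang4 and Pla2g2a, and the summed level of the list was 13.8 (log2) in WT and 15.0 in CD36KO. Tlr5 had 1 probe set, with readings not far above the median level of 4.38. The part of Paneth cells in the Tlr5 reading was not tested.

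The endosomal receptors differed little between the pools, and their probe sets did not point one way. Tlr3, the sensor of double-stranded RNA, read 7.43 in WT and 7.31 in CD36KO at 1422782_s_at, and 4.51 and 4.77 at 1422781_at, both designed on the same sequence record. The brighter reading was lower and the dimmer one higher in CD36KO, by -0.12 and 0.26. Tlr9, the sensor of unmethylated CpG DNA, read 6.36 in WT and 6.30 in CD36KO, a difference of -0.06.

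Tlr7, the sensor of single-stranded RNA, had 3 probe sets. The reading at 1422010_at was 4.39 in WT and 4.66 in CD36KO, 0.26 higher. The others were lower in CD36KO, 3.56 against 3.30 at 1419848_x_at and 3.47 against 3.27 at 1449640_at, both below the median level. Those last probe sets were designed on the same sequence record and are no independent readings. Tlr12, the profilin receptor, read 5.40 and 5.49 at 1438329_at and 4.35 and 4.31 at 1437931_at, differences of 0.09 and -0.04. Of the 4 members with several probe sets, 3 therefore had readings of both signs: Tlr3, Tlr7 and Tlr12.

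Myd88, the adaptor shared by all of these receptors except Tlr3, read 7.60 in WT and 7.69 in CD36KO, a difference of 0.09 (1.06-fold higher). Both values were well above the median level. The Myd88 region upstream of its start held a match to the interferon-stimulated response element at -40. The other adaptors of the pathway were read at the probe set with the highest mean per gene. Tirap, which bridges Tlr2 and Tlr4 to Myd88, differed by 0.15, Ticam1, the adaptor of Tlr3, by -0.16, Sarm1, a negative regulator, by -0.13, and Pik3ap1, which links the receptors to phosphoinositide 3-kinase, by 0.45 (with -0.55 at another probe set). None of these 4 passed 1.5-fold.

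The wider pathway was read the same way for 89 genes in 8 lists. Of these 5 were higher in CD36KO by at least 1.5-fold and 1 was lower, against 3.81% and 2.6% of all genes, and the median difference was 0.02 against -0.0098 over all genes. Among co-receptors, chaperones and trafficking factors 2 of 10 were at least 1.5-fold higher and 0 lower, with a median of 0.23. Ly86 (MD-1), the partner of Cd180 on B cells and macrophages, read 6.78 in WT and 7.48 in CD36KO, 1.62-fold higher, while Cd180 itself read 3.79 and 3.37, below the median level. Lbp, which carries lipopolysaccharide to Cd14, read 4.70 and 5.38, 1.59-fold higher, but another of its probe sets differed by -0.31.

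The remaining factors of that list lay within 1.5-fold. Unc93b1, which escorts the nucleic acid receptors to endosomes, read 7.99 in WT and 8.32 in CD36KO, Lrrc59, a partner in that transport, differed by 0.36, and Ap3b1, an adaptor complex subunit that sorts the receptors, by 0.26 (with 0.61 at another probe set). Hsp90b1, the chaperone on which most of the family depends for folding, differed by 0.07, with 1.63 at another probe set. The co-receptors of Tlr4, named after their values were seen, differed by 0.21 (Cd14) and 0.06 (Ly96, MD-2). Of the other Toll-like receptors, Tlr8, which lies next to Tlr7 on chromosome X, and Tlr13 differed by 0.11 and 0.17, below the median level.

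Kinases, inhibitors and transcription factors carry or restrain the signal further downstream. Of 14 kinases and ubiquitin enzymes none passed 1.5-fold and 4 were above 0, with a median of -0.08. Those with the highest readings were Ube2v1 (-0.04) and Ube2n (0.20), which build the ubiquitin chains that activate the kinases, Tab2 (-0.13, with 0.64 at another probe set), which binds these chains, and Tbk1 (-0.33), the kinase of the interferon branch. Of 16 inhibitors 1 was lower past 1.5-fold, Nfkbiz, a nuclear member of the IkB family that also acts as a co-activator, which read 9.10 in WT and 8.49 in CD36KO. Its other probe sets differed by -0.71 and -0.02. Nfkbia, the IkB protein that holds NF-kB in the cytoplasm, differed by 0.02, Tnip1 by -0.03, Tollip by 0.02 and Cyld by -0.22. Of 12 transcription factors 0 passed 1.5-fold, and Irf7 differed by 0.43, Irf8 by 0.40, Irf1 by 0.01 and Fos by -0.07. Other probe sets past 1.5-fold, named after their values were seen, were those of Irf3 (-0.84, with -0.06 at its highest probe set) and of the ubiquitin ligase Peli1 (0.71, with 0.13 at its highest).

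**Figure D3:**
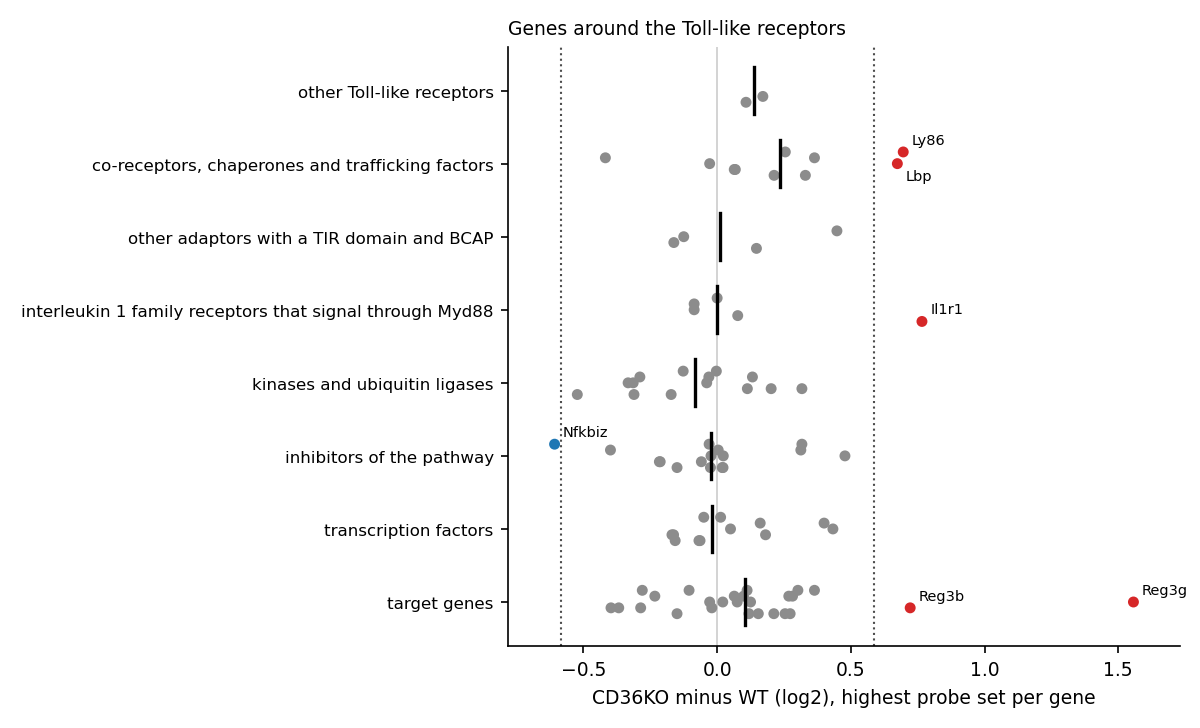
CD36KO minus WT difference (log2, horizontal axis) of each gene in 8 lists around the Toll-like receptors, read at the probe set with the highest mean; black bars are list medians, dotted lines mark 1.5-fold, red points are at least 1.5-fold higher and the blue point at least 1.5-fold lower. The 6 genes past the lines are Lbp, Ly86, Il1r1, Nfkbiz, Reg3b and Reg3g.

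The receptors of the interleukin 1 family use Myd88 as well. Il1r1, the receptor of interleukin 1, was the 1 of 5 past 1.5-fold, at 5.82 in WT and 6.59 in CD36KO (1.70-fold higher), and another of its probe sets differed by -0.02. Il18r1 and Il18rap, the chains of the interleukin 18 receptor, differed by -0.09 and -0.09, Il1rap by 0.08 and Il1rl2 by 0.00. Il1r1 is made by fibroblasts, and 7 of 8 fibroblast markers were higher in CD36KO past 1.5-fold, with a summed level of 11.5 (log2) in WT and 12.6 in CD36KO. Other probe sets of these markers varied, with 0.06 for Col1a1, -0.08 for Dcn, -0.43 to 1.29 for Col1a2 and 1.26 for Col3a1. The part of fibroblasts in the Il1r1 reading was not tested.

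Of 26 target genes of the pathway 2 were higher by at least 1.5-fold in the CD36KO pool and 0 lower, against 3.81% and 2.6% of all genes. The median difference of the targets was 0.11. Reg3g, a bactericidal lectin of the epithelium whose expression depends on Myd88, read 11.7 in WT and 13.2 in CD36KO, 2.94-fold higher. Reg3b, a related lectin, read 13.1 and 13.8, 1.65-fold higher, with 0.31 at another probe set; the similar sequences of these lectins may share signal. The other 24 targets lay within 1.5-fold at their highest probe set, while another probe set of Cd86 differed by 0.68. Ccl5 differed by 0.21, Cxcl1 by -0.11 and Cxcl10 by -0.40, and Icam1, an adhesion molecule, by 0.30. Tnf and Il1b, named after their values were seen, differed by 0.27 and 0.27, and 13 of the 26, among them Il6, Il12b and Cxcl2, had means below the median level. Beside the lectins, the 9 distal small intestine markers had a median difference of 2.09 and the 5 Paneth cell markers one of 2.18. The part of segment and of Paneth cells in the readings of Reg3b and Reg3g was not tested.

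Markers of cells that carry Toll-like receptors are given beside Tlr2. All 12 macrophage markers measured were above 0 in difference, with a median of 0.28. Of these 4 passed 1.5-fold on the CD36KO side (Cd68, C1qa, C1qc and Lyz2) and 0 lower, and the summed level of the list was 11.0 (log2) in WT and 11.7 in CD36KO. The brightest of the list was Lyz2, which read 9.46 in WT and 10.6 in CD36KO, so that the sum leans on this gene. The related Paneth cell marker Lyz1 read 13.2 in WT and 13.7 in CD36KO. Whether the Lyz2 probe set shares signal with Lyz1 was not tested. Cd68, Itgam and Cd163 had means below the median level. Over all genes 47.8% were above 0. Every marker was above 0 in the fibroblast, smooth muscle, Paneth cell, goblet cell, distal small intestine and pancreas lists too. Of 8 blood endothelium markers 7 were above 0, with a median of 0.305 and 2 higher past 1.5-fold. The part of macrophages in the Tlr2 and Ly86 readings was not tested, and in a pool of whole tissue more cells of a type cannot be told apart from more RNA per cell.

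The lists of other immune cells were read in the same way. Of 6 B cell markers 1 was at least 1.5-fold higher, Ms4a1, with a list median of 0.36 and summed levels of 8.52 in WT and 8.97 in CD36KO. Of 7 dendritic cell markers 0 passed 1.5-fold, with a median of 0.05, and of 5 plasmacytoid dendritic cell markers 0 did, with a median of -0.05. Tlr7 and Tlr9 are highly expressed in this last cell type, whose marker Siglech was below the median level. Its marker Tcf4 differed by -0.38, with 0.02 to 0.59 at other probe sets. Of 8 T and NK cell markers 1 was lower past 1.5-fold, Klrd1 (1.85-fold), with a median of -0.07. Of 7 mast cell markers 1 was higher past 1.5-fold, Kit (1.75-fold, with -0.01 at another probe set). The other 6 mast cell markers had means below the median level. Of the 7, 4 were above 0, and among the rest Tpsb2 differed by -0.52. Of 6 plasma cell markers 0 passed 1.5-fold at their highest probe set. Other probe sets differed by 0.485 to 1.29 for Sdc1 and by -0.64 to 0.49 for Xbp1, so that some passed it. Neutrophils carry Tlr2 and Tlr4 too. Of 8 neutrophil markers 0 passed 1.5-fold, 6 were below the median level, S100a8 and S100a9 among them, and the summed level was 7.13 in WT and 7.13 in CD36KO.

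**Figure D4:**
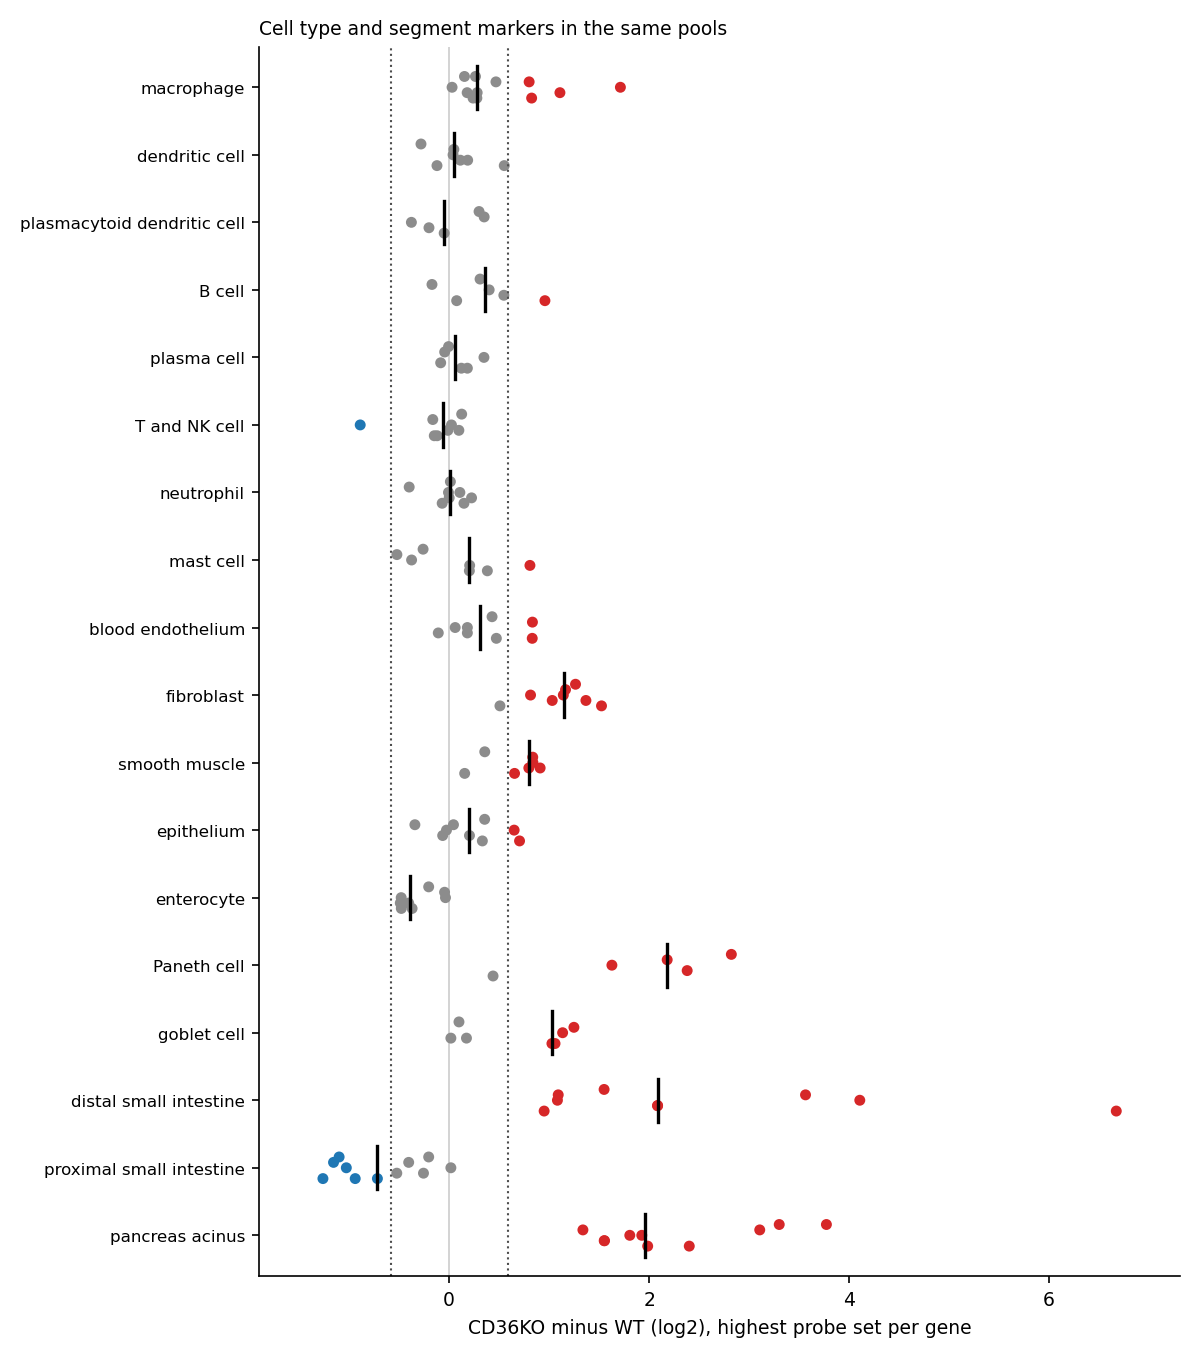
CD36KO minus WT difference (log2, horizontal axis) of the marker genes of 18 cell types and gut segments, read at the probe set with the highest mean; black bars are list medians, dotted lines mark 1.5-fold, red and blue points are at least 1.5-fold higher and lower. The macrophage, fibroblast, smooth muscle, Paneth cell, goblet cell, distal small intestine and pancreas points all lie to the right of 0. The neutrophil points all lie within 1.5-fold. The distal small intestine and pancreas lists lie farthest to the right with the Paneth cell list.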

How the data were processed

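RNA of 3 animals per genotype was extracted with TRIzol, pooled and labelled with biotin from 100 ng, per the labels' protocols. The authors deposited log2 values for 45101 probe sets; the base follows from the values, which reach 14.2. Summarization and normalization of the arrays were not given in the sources used here. Probe sets were named from the array's annotation (34958 with 1 symbol, 932 with several, 9211 unnamed here), and 34754 identifiers were found in RefSeq GRCm38.p6, which changed 0 symbols.

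For every member probe set the WT log2 value was subtracted from that of CD36KO as deposited, with no filter. Genes of the pathway and marker lists were read at the probe set with the highest mean; listed genes without such a probe set are not analysed here. Named from each list were the genes past 1.5-fold and up to 4 further genes with the highest mean. The members and lists were chosen with earlier results of these data known. No test was run, since each genotype had 1 array. Alternatives were median centring, quantile normalization, a lowess trend (fraction 0.3) and an offset of 16. A filter on the mean level, other choices of probe set and thresholds of 1.25-fold, 1.3-fold (added later) and 2-fold were also run. The procedure was run on simulated arrays with larger shifts than that of Tlr2, which does not bear on differences near 1.5-fold. The tools were pandas 2.3.3 and NumPy 2.4.6 under Python 3.11.15, with statsmodels 0.14.6 for the trend and matplotlib 3.10.9 for plots.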

Additional observations from a re-analysis of the deposited data

How the results depend on the processing

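The single member probe set at least 1.5-fold higher in CD36KO was that of Tlr2 under median centring, quantile normalization and removal of a lowess trend, with log2 differences of 0.79 to 0.81. With an offset of 16 linear units the count was 0, since the difference of Tlr2 was then 0.52, and at a threshold of 2-fold it was 0. The count at least 1.5-fold lower was 0 under every alternative run. The median difference of the members was -0.046 when each gene was represented by its least different probe set, a choice that can alter only the 4 genes with several probe sets, and lay above 0 under the other alternatives run. No member probe set changed sign under centring, quantile normalization, the trend or the offset, and 6 of 17 moved by over 0.1 with the offset. No paired analysis was possible because each genotype had 1 array, and for the same reason no replicate could be left out. The 8 member probe sets below the median level, all those of Tlr4 and Tlr6 among them, limit what can be read at low signal.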
